A study of Homo sapiens with 6 samples.

Results

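The SERPINB genes encode the intracellular branch of the serpins, the serine protease inhibitors. The 10 members described here are SERPINB1 to SERPINB9 and SERPINB13, taken by gene symbol from a table of 16551 protein-coding genes. The table holds 13 SERPINB genes. The other 3, SERPINB10, SERPINB11 and SERPINB12, are near the limit of detection in these cells. Transcripts were counted in cells labelled HaCaT, an immortalised human keratinocyte line, in 3 libraries labelled NC and 3 labelled si-YTHDF2. The second label is the usual notation for a small interfering RNA against YTHDF2, the reader protein that sends mRNA bearing N6-methyladenosine to decay. The design text calls the control group si-NC, the usual name for cells given a control siRNA, and no other agent is named for either group. No dose, time after transfection or siRNA sequence is given in the sources used here. The labels do not say whether replicates are separate cultures, so a p-value here reflects only how far these 6 libraries scatter, which could be technical.

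A serpin offers a protease a bait, the reactive centre loop. Once the protease cuts the loop, the serpin changes shape and traps the enzyme in a covalent complex in which both are spent. The SERPINB branch lacks a classical secretion signal and works mainly in the cytoplasm and nucleus, where it guards cells against leaked lysosomal and granule proteases. In epidermis the family is known from the suprabasal layers, from inherited keratodermas and peeling skin, and from psoriatic plaques, in which SERPINB3 and SERPINB4 are abundant.

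The summed level of the family was lower in si-YTHDF2, with no overlap between the groups, and its make-up differed. Of the 10 members, 9 passed the filter on low counts. Among these, 6 fell (SERPINB1, SERPINB2, SERPINB3, SERPINB4, SERPINB5 and SERPINB6), 2 rose (SERPINB7 and SERPINB8), and SERPINB13 was not called. The threshold for a call was an adjusted p (Benjamini-Hochberg, over all genes tested) below 0.05 in edgeR's quasi-likelihood test. Over all 12264 genes tested, 51.2% were called, 26.1% as higher and 25.2% as lower, so a call by itself was common in these libraries. With library totals in place of composition factors the share of higher among the called genes was 61.3%, against 50.9% here, and the members' calls were as given. A call with a change of at least 2-fold was less common, at 7.40% of genes tested, and 5 members met it. The median log2 ratio of si-YTHDF2 over NC (log2 fold change) was -0.70 over the 9 tested members and 0.01 over all genes tested.

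YTHDF2 was at 78.7 ± 4.72 CPM in NC and 44.9 ± 2.98 CPM in si-YTHDF2 (SD, n = 3 each; CPM are counts scaled to library size with composition factors). Library totals ran from 19803707 to 22698069 counts. The 12 keratinocyte markers summed to 6408 to 6741 CPM in NC and 6295 to 6669 CPM in si-YTHDF2, with 2 higher and 6 lower of 12 tested. DSC3, a desmosomal cadherin, went from 413 to 239 CPM, and COL17A1, a hemidesmosomal collagen, from 175 to 272 CPM. KRT14 averaged 2.11 CPM, where its usual partner KRT5 averaged 2207 CPM, so a defining marker of the labelled cells was near 0. Markers of blood cells differed between the groups. All 8 tested red cell markers of 12 listed were higher in si-YTHDF2, with sums of 62.7 to 64.8 CPM in NC and 1560 to 1791 CPM in si-YTHDF2. These marker levels put the identity of the cells and the purity of the RNA in doubt, and neither was tested. The 3 NC libraries were unlike one another in terminal differentiation genes, since KRT1 had 5, 126 and 888 counts in NC replicates 1, 2 and 3. Each of the 9 tested members kept its direction and its side of the threshold without any one of the 6 libraries, NC replicate 3 included.

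SERPINB1 is best known as a fast inhibitor of neutrophil elastase, cathepsin G and proteinase 3, and it is the most abundant member in NC. The gene (ENSG00000021355) spans 2832332 to 2842006 on the minus strand of chromosome 6 (GRCh38). It reached 476, 461 and 481 CPM in the NC libraries, against 215, 211 and 209 CPM in the si-YTHDF2 libraries. The groups stood far apart and each was tight, so that every si-YTHDF2 library held less than any NC library. The si-YTHDF2 mean was 44.8% of the NC mean. On the log2 scale this was a change of -1.16 ± 0.05 (SE, edgeR adjusted p = 2.96e-10). In bulk RNA, fewer expressing cells and less RNA per cell cannot be told apart. SERPINB1 is also abundant in neutrophils and monocytes, and the summed markers of those cells overlapped between the groups. They came to 50.8 to 56.4 CPM in NC and 49.1 to 54.1 CPM in si-YTHDF2, with 5 higher and 3 lower of 8 tested and 15 listed. The sum hides opposite changes. Most of it was S100A9 (28.0 and 21.4 CPM) and CLEC7A (1273 and 824 counts in all), whereas LYZ went from 30 counts over the NC libraries to 441 over the si-YTHDF2 libraries and FCN1 from 1 to 152. The part of such cells in the SERPINB1 level was not tested.

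SERPINB6 (ENSG00000124570), an inhibitor of trypsin-like proteases and of cathepsin G, lies on the same strand of chromosome 6, from 2948159 to 2972165. It stood at 226, 228 and 224 CPM in NC, against 139, 143 and 135 CPM in si-YTHDF2. The groups did not overlap, and the drop was smaller than that of SERPINB1. In log2 terms the difference came to -0.70 ± 0.05 (SE, edgeR adjusted p = 6.94e-08). Across all genes tested the groups did not overlap in 58.5%, against 8 of the 9 tested members.

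SERPINB9 (ENSG00000170542) is the inhibitor of granzyme B, with which cytotoxic lymphocytes protect themselves from their own granules. It sits between SERPINB1 and SERPINB6, from 2887266 to 2903280, and was barely detected. Its counts were 1, 3 and 1 for NC against 8, 11 and 8 for si-YTHDF2, which left it below the filter and untested in the main fit. The groups did not overlap. Summed over libraries and scaled by library totals, the si-YTHDF2 level was 5.62 times the NC level, with an exact 95% interval of 2.13 to 18.7 that covers counting error only. Without the filter the fitted log2 ratio was 2.33 (edgeR adjusted p = 0.0170). Lymphocyte markers moved the same way: 3 of 3 tested of 12 listed were higher, with sums of 27.5 to 30.4 CPM in NC and 69.0 to 76.9 CPM in si-YTHDF2. Most of that sum was IL7R, at 28.3 and 66.3 CPM. PTPRC had 15 counts in NC and 274 in si-YTHDF2, and NKG7 was at 0 in NC. The part of such cells in the SERPINB9 counts was not tested. Its target family was near 0: GZMB had 1 count over the NC libraries and 2, 1 and 4 for si-YTHDF2.

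SERPINB2 inhibits the plasminogen activators urokinase and tissue plasminogen activator outside the cell and accumulates inside stressed and stimulated cells. The gene (ENSG00000197632) spans 63871692 to 63903890 on the plus strand of chromosome 18. Its level came to 746, 555 and 688 counts in NC against 257, 229 and 260 in si-YTHDF2, with group means of 31.1 ± 2.96 and 11.7 ± 1.22 CPM (SD, n = 3 each). The lowest NC library was above the highest si-YTHDF2 library by more than the range within either group. The fitted log2 ratio was -1.41 ± 0.10 (SE, edgeR adjusted p = 1.01e-07), which left 37.6% of the NC mean. SERPINB10 overlaps the 3-prime end of SERPINB2 on the same strand but had only 2 to 16 counts per library.

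SERPINB3 and SERPINB4, the squamous cell carcinoma antigens, are tandem copies that diverged in their reactive loops. SERPINB3 mainly inhibits papain-like cysteine cathepsins, and SERPINB4 inhibits cathepsin G and mast cell chymase. Both lie on the minus strand of chromosome 18, SERPINB4 (ENSG00000206073) from 63637259 to 63644298 and SERPINB3 (ENSG00000057149) from 63655197 to 63661963. Their representative transcripts were 95.7% identical over the aligned positions, and their coding sequences differed at 56 of 1173 positions. Even so, 23.9% of the 50-base windows of the SERPINB3 transcript occurred unchanged in SERPINB4, as did 3.40% of its 100-base windows. No other pair of members shared a window of either length. The authors' treatment of reads that match both copies is not given in the sources used here, so the split between them is uncertain. The start regions of the genes are closer still. The windows below run from 250 bases before the RefSeq start to 50 bases after it on the minus strand of GRCh38.p14, at chr18:63661844-63662143 for SERPINB3 and chr18:63644207-63644506 for SERPINB4. They are shown because the members with the largest decreases share this sequence, and capitals mark the bases that differ.
SERPINB3: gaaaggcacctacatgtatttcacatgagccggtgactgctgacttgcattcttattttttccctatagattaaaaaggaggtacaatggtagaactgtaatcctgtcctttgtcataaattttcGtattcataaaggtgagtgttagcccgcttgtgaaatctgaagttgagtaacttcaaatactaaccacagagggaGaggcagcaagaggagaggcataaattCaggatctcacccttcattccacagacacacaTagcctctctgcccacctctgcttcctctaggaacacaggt
SERPINB4: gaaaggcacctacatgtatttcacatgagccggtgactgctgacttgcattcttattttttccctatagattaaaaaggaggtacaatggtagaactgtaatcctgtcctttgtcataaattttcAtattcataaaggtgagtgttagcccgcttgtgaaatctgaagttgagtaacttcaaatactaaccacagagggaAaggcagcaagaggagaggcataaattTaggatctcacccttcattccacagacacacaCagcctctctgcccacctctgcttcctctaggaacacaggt
Counted from 1 at the 5′ end of the window, with the SERPINB3 base first, the differences are G126A, G201A, C228T and T260C. The other 296 of 300 bases are identical.

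SERPINB4 had the largest change of any member. Its counts were 136, 109 and 138 for NC against 23, 18 and 16 for si-YTHDF2. The groups did not overlap, and the NC mean was 6.76 times the si-YTHDF2 mean. The log2 ratio came to -2.75 ± 0.23 (SE, edgeR adjusted p = 3.71e-07). For SERPINB3 the NC libraries gave 102, 95 and 98 counts, against 31, 21 and 11 for si-YTHDF2. It fell in every si-YTHDF2 library, with more spread there than in NC. Fitted across all genes, the log2 ratio was -2.24 ± 0.29 (SE, edgeR adjusted p = 2.88e-05). The sum of both genes changed by a log2 ratio of -2.51 ± 0.20 (SE, edgeR adjusted p = 2.18e-07). If each shared read was counted once, the sum does not depend on how such reads were split. Reads that were dropped, or counted for both copies, would alter the sum, and their treatment is not given. The ratio of the copies did not separate the groups. As log2 of SERPINB3 over SERPINB4 it was -0.41, -0.19 and -0.49 in NC against 0.40, 0.20 and -0.47 in si-YTHDF2 (exact two-sided permutation test, p = 0.3, where 3 against 3 libraries allow no p below 0.1). SERPINB11 overlaps SERPINB3 on the opposite strand, and it had at most 1 count in any library.

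SERPINB13, also called headpin or hurpin, inhibits cathepsins K and L in keratinocytes. The gene (ENSG00000197641) spans 63586989 to 63604639 on the plus strand of chromosome 18, next to the SERPINB4 end of the cluster. It was the abundant member that was not called. Its level was 298, 285 and 295 CPM in NC, against 311, 275 and 273 CPM in si-YTHDF2. Replicate 1 of si-YTHDF2 lay above all NC libraries, and replicates 2 and 3 lay below them. As a log2 ratio the change was -0.03 ± 0.06 (SE, edgeR adjusted p = 0.666), and 0.03 with library totals, still not called.

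SERPINB5, or maspin, keeps the serpin fold without inhibiting a known protease in the usual way, and is studied as a suppressor of tumour cell motility. The gene (ENSG00000206075) spans 63476761 to 63505085 on the plus strand of chromosome 18. It stood at 231, 220 and 230 CPM in NC, against 174, 157 and 159 CPM in si-YTHDF2. The groups did not overlap, and the si-YTHDF2 mean was 71.8% of the NC mean. On the log2 scale this was a change of -0.48 ± 0.05 (SE, edgeR adjusted p = 7.82e-06). This was a small change for the family, with the same sign as those of SERPINB1 and SERPINB6.

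The 2 members that rose are low in abundance and both have roles in inherited skin disease. SERPINB8 inhibits the proprotein convertase furin, and its loss causes a peeling skin disorder. The gene (ENSG00000166401) spans 63969925 to 64019779 on the plus strand of chromosome 18. Its counts were 157, 121 and 140 for NC against 336, 292 and 292 for si-YTHDF2, or 6.55 ± 0.55 and 14.4 ± 0.82 CPM (SD, n = 3 each). All si-YTHDF2 libraries were above all NC libraries. In log2 terms the difference came to 1.13 ± 0.12 (SE, edgeR adjusted p = 3.78e-06). SERPINB8 is also known from platelets. Platelet markers summed to 6.10 to 7.21 CPM in NC and 16.5 to 17.3 CPM in si-YTHDF2, with 3 higher of 4 tested and 8 listed. Nearly all of the NC sum was NRGN, at 6.10 and 5.18 CPM. Summed over libraries, PPBP went from 18 to 399 counts, TUBB1 from 3 to 226 and PF4 from 1 to 69, and GP9 had 0 in NC and 2 in si-YTHDF2. Their part in the SERPINB8 increase was not tested.

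HMSD, a serpin-like gene that overlaps the start of SERPINB8 on the same strand, was at 0.433 ± 0.42 CPM in NC and 1.27 ± 0.50 CPM in si-YTHDF2 (SD, n = 3 each). These groups overlapped. Its call (log2 ratio 1.53, edgeR adjusted p = 0.0370) was lost without NC replicate 1 (adjusted p = 0.101), NC replicate 2 (adjusted p = 0.111) or si-YTHDF2 replicate 2 (adjusted p = 0.173), and it was named after its values were seen.

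SERPINB7 is a keratinocyte serpin whose loss causes a recessive palmoplantar keratosis. The gene (ENSG00000166396) spans 63752935 to 63805376 on the plus strand of chromosome 18. Its level was 9.74, 10.2 and 9.72 CPM in NC, against 14.1, 13.1 and 14.1 CPM in si-YTHDF2. The groups were tight and did not overlap, and the si-YTHDF2 mean was 139% of the NC mean. The fitted log2 ratio was 0.48 ± 0.11 (SE, edgeR adjusted p = 0.00191). With a minimum of 1.5-fold added to the call, SERPINB8 alone counted as higher.

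**Figure D1:**
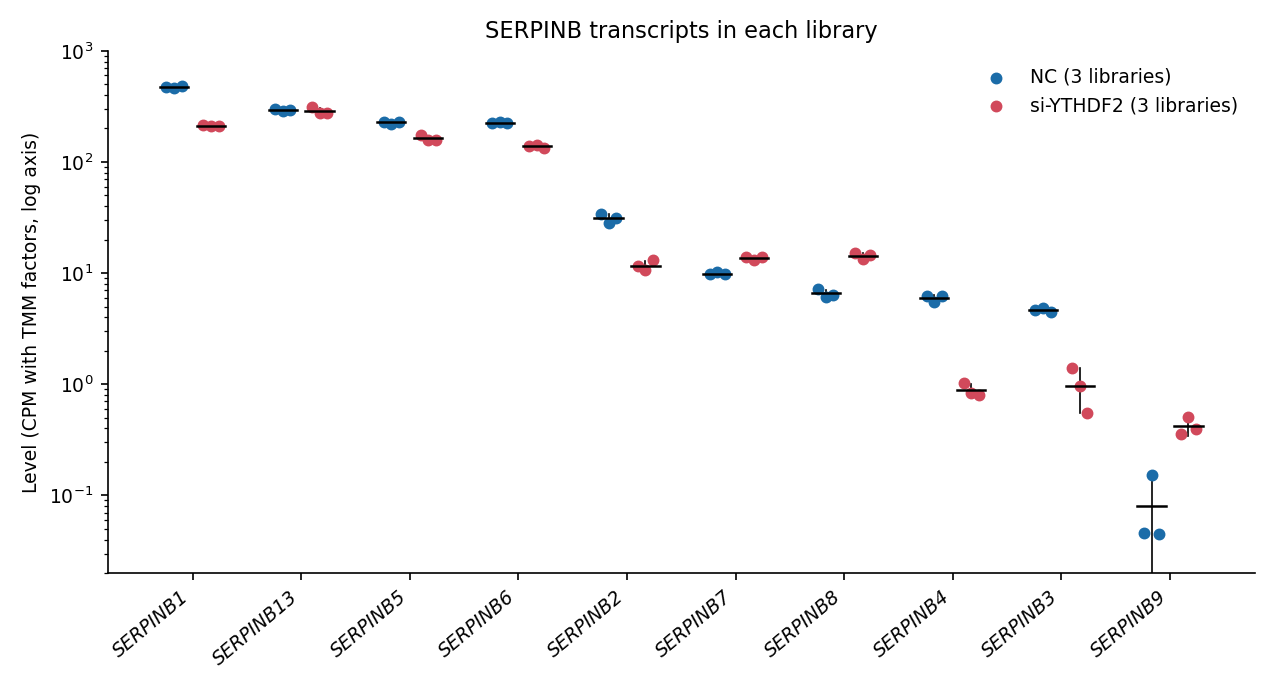
Level of each SERPINB member in CPM on a log axis, ordered by the NC mean; each point is 1 library, horizontal bars are group means and vertical bars the SD over 3 libraries, which for SERPINB9 in NC runs off the axis. The groups overlap in SERPINB13, with 273 to 311 CPM in si-YTHDF2 around 285 to 298 CPM in NC, and they are farthest apart, among the tested members, in SERPINB4.

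A further 3 start regions are shown because these members went different ways on chromosome 18: SERPINB2 fell, SERPINB8 rose and SERPINB13 was not called. The windows have the same span around the RefSeq start on the plus strand of GRCh38.p14, at chr18:63887455-63887754 for SERPINB2, chr18:63969831-63970130 for SERPINB8 and chr18:63587093-63587392 for SERPINB13. Gene spans and starts used elsewhere come from GENCODE, and the GENCODE starts of these genes differ from the RefSeq starts. The SERPINB2 window lies inside the span given for its gene, away from the start of that span. Capitals mark the letters TATAAA, the core of the TATA box, and TGAGTCA, the site bound by AP-1 factors, each on either strand.
SERPINB2: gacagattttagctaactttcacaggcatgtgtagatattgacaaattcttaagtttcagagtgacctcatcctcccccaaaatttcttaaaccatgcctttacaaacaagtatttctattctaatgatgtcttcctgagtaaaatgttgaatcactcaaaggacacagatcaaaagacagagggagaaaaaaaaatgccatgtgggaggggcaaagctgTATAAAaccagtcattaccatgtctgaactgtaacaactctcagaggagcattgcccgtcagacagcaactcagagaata
SERPINB8: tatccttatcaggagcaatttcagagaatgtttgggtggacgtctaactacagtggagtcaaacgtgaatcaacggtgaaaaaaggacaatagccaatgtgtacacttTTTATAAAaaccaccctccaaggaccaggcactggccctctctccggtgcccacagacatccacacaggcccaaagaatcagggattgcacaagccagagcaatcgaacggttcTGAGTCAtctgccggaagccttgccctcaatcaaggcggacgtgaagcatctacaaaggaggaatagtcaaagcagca
SERPINB13: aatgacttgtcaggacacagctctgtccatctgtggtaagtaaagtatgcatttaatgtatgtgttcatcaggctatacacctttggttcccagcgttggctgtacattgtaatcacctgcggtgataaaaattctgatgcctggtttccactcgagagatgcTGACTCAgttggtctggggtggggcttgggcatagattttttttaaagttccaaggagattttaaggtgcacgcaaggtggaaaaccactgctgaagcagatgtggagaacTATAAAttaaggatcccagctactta
SERPINB2 has a TATA match at -30 from its start. SERPINB8 has an AP-1 match at -28 and a pair of TATA matches that overlap on opposite strands. SERPINB13 has an AP-1 match at -87 and a TATA match at 25. The windows of SERPINB1, SERPINB3, SERPINB4 and SERPINB5 hold neither motif. SERPINB9 has a TATA match at -30. SERPINB6 has 4 windows, of which 1 holds a TATA match, at -1, and none an AP-1 match. SERPINB7 has 3 windows, of which 2 hold an AP-1 match, at -39 and -45, and the latter also holds 2 TATA matches. Of 35116 RefSeq windows of this length, 11.5% hold the TATA letters and 4.95% the AP-1 letters. A match of letters is a description and not a bound site.

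Levels can be compared between members only per length. In TPM, which divide counts by the length of 1 representative transcript per gene, the order in NC was SERPINB1 (328), SERPINB6 (298), SERPINB13 (171), SERPINB5 (148), SERPINB2 (29.6), SERPINB7 (9.07), SERPINB4 (6.23), SERPINB3 (4.74), SERPINB8 (3.43) and SERPINB9 (0.0354). No neighbours in that order overlapped over the 3 NC libraries. The places of SERPINB4 and SERPINB3 in the order also depend on how reads shared by the copies were treated, which is not known. In si-YTHDF2 it became SERPINB6 (199), SERPINB13 (181), SERPINB1 (159), SERPINB5 (116), SERPINB7 (13.7), SERPINB2 (12.04), SERPINB8 (8.16), SERPINB3 (1.09), SERPINB4 (1.00) and SERPINB9 (0.202). There the libraries overlapped between SERPINB6 and SERPINB13, between SERPINB13 and SERPINB1, between SERPINB7 and SERPINB2, and between SERPINB3 and SERPINB4.

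The members together took 1277, 1211 and 1255 CPM (here scaled by library totals alone) in NC, against 916, 840 and 828 in si-YTHDF2. Every si-YTHDF2 library was lower than every NC library. The si-YTHDF2 mean was 69.0% of the NC mean (exact two-sided permutation test, p = 0.1, the smallest possible). The make-up of the family changed with its size. SERPINB1 supplied 32.8% ± 0.31 of the members' summed TPM in NC and 23.1% ± 0.48 in si-YTHDF2 (SD, n = 3 each). SERPINB13 went from 17.1% ± 0.13 to 26.2% ± 1.05 on the same measure. SERPINB6 stayed close in share, at 29.9% ± 0.67 and 28.8% ± 1.09, although its level fell. These are parts of a sum that was itself lower in si-YTHDF2, so a share can rise without a rise in level. The level of SERPINB13 was not called as changed, and SERPINB5, called lower, went from 14.8% to 16.7% of the sum. SERPINB7 and SERPINB8 together remained a small part, with 1.98% and 1.18% in si-YTHDF2.

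**Figure D2:**
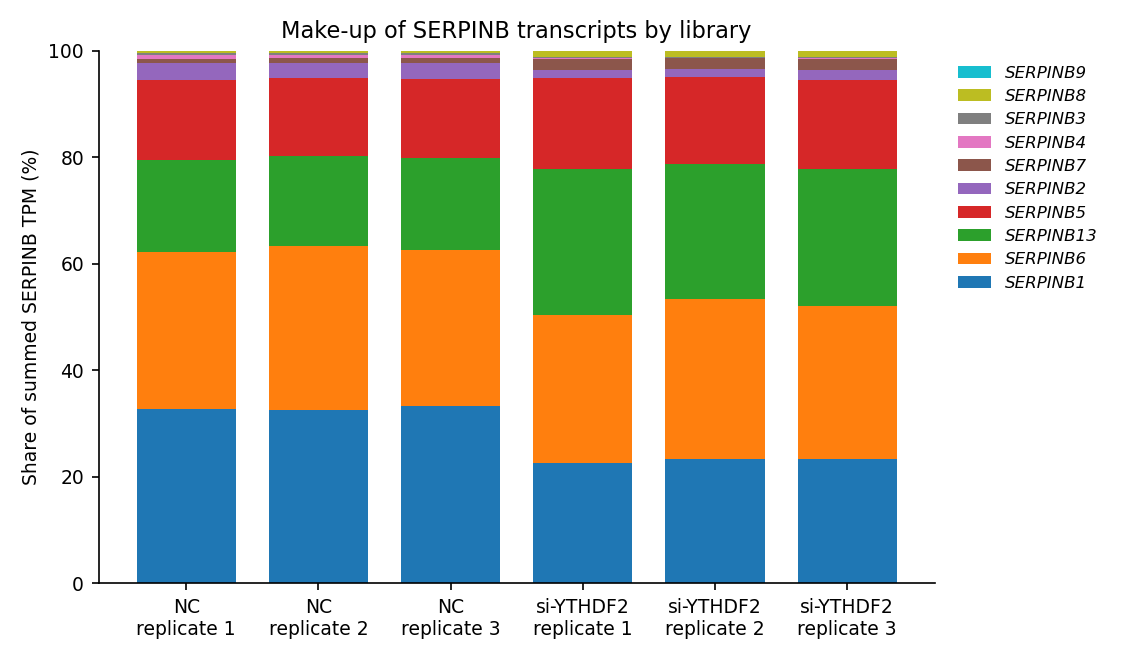
Share of the summed SERPINB TPM taken by each member, in percent, in each of the 6 libraries (stacked bars, 1 bar per library). The SERPINB1 segment is 32.6% to 33.2% in NC and 22.5% to 23.3% in si-YTHDF2, while the SERPINB13 segment is larger in each si-YTHDF2 library. Segments show shares and not levels, and the summed level was lower in si-YTHDF2.

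Both SERPINB loci were examined with the genes around them, to see whether changes followed position. Within 1 Mb of a member lay 21 other genes of the table, of which 18 were tested. Of these, 5 were higher, 5 lower and 8 not called, with a median log2 fold change of -0.10. The share called was 55.6%, against 51.2% over all genes tested. Leaving out NC replicate 1 gave 3 higher neighbours, and leaving out si-YTHDF2 replicate 2 gave 2. On chromosome 6 the lower neighbours included WRNIP1, a replication-fork ATPase (log2 ratio -0.43, edgeR adjusted p = 5.56e-05). GMDS, an enzyme of GDP-fucose synthesis, was lower by a wider margin (-0.90, edgeR adjusted p = 4.34e-08). On chromosome 18 PHLPP1, a phosphatase of AKT, fell (-0.77, edgeR adjusted p = 9.86e-08), and BCL2, the anti-apoptotic gene, rose from 1.74 to 4.27 CPM (1.29, edgeR adjusted p = 5.05e-04). Within the chromosome 18 cluster, members next to each other differed in sign: SERPINB2 (-1.41) lies between SERPINB7 (0.48) and SERPINB8 (1.13).

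**Figure D3:**
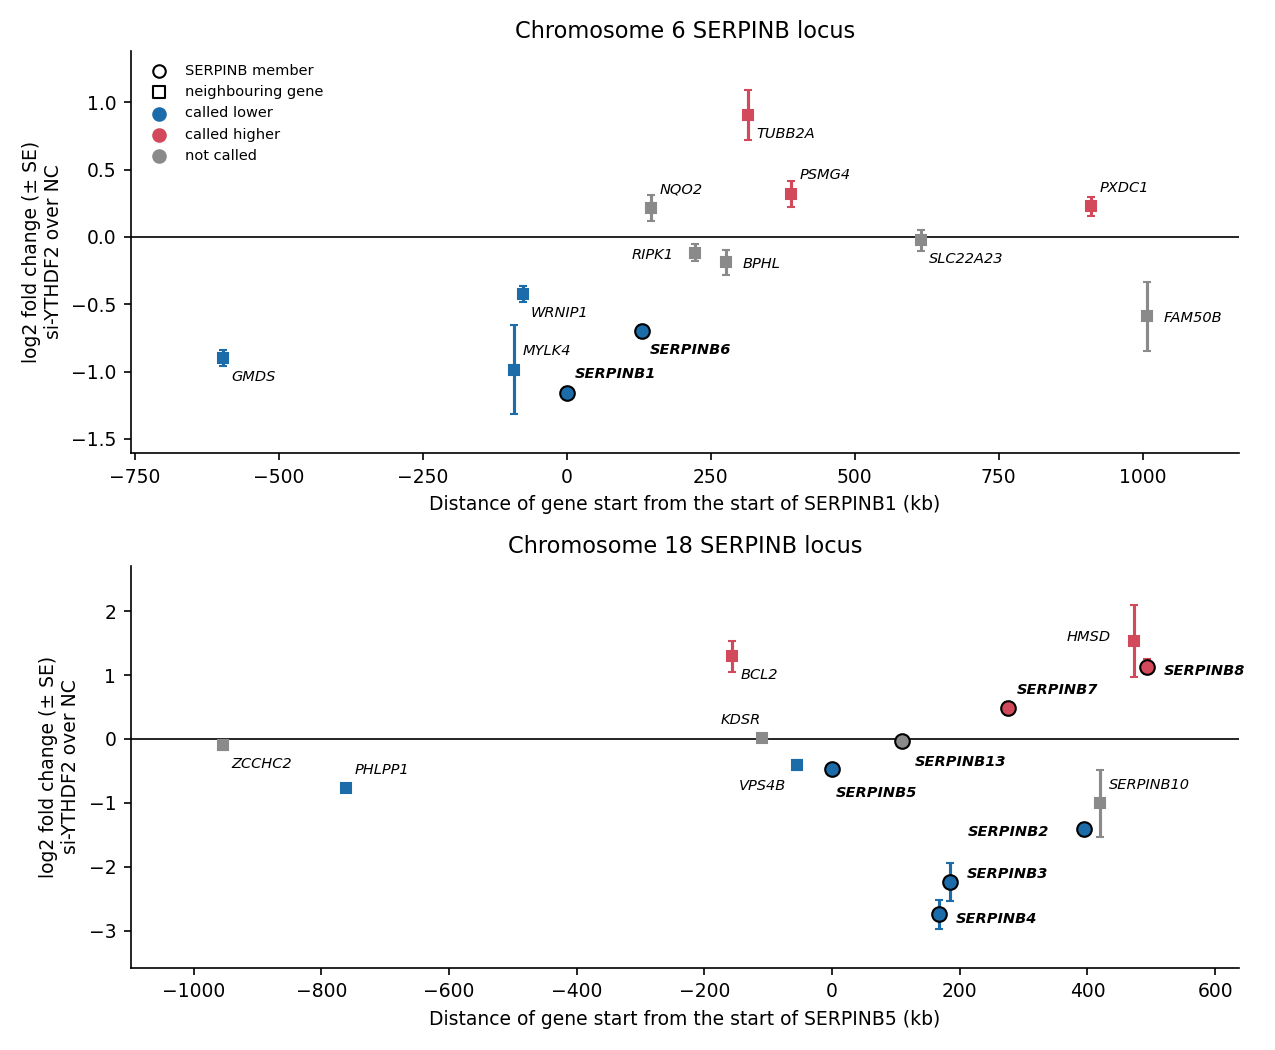
The log2 fold change (± SE) of tested SERPINB members (circles) and tested genes within 1 Mb of a member (squares) against the distance in kb of each gene's start from the start of SERPINB1 (top) or SERPINB5 (bottom). Colours give the call; on chromosome 18 SERPINB3 (-2.24) and SERPINB4 (-2.75) lie between SERPINB13 (-0.03) and SERPINB7 (0.48).

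The proteases that members hold in check were looked at by class. Over all genes tested 51.2% were called. The share was 60% in cathepsins, 71.4% in plasminogen and coagulation genes and 80% in kallikreins and epithelial serine proteases. It was 47.1% in inhibitors of other classes, 42.9% in other serpins, 50% in squamous genes and 83.3% in transcription factors. Granzymes, leukocyte proteases and caspases had only 2 tested genes, both called. Of 10 tested cathepsins 3 were higher and 3 lower, with a median log2 fold change of -0.08. With the replicate block, or without any one NC library, 2 were lower. CTSC, named after its values were seen, was lower by a narrow margin (-0.13, edgeR adjusted p = 0.0465). CTSS, a cysteine cathepsin of antigen presentation, fell from 54.5 to 23.0 CPM (-1.24, edgeR adjusted p = 3.16e-08), and the aspartic cathepsin CTSD fell by 0.44 on the log2 scale. The carboxypeptidase CTSA rose from 176 to 343 CPM (0.96), and CTSV, a keratinocyte cathepsin, rose by 0.49. CTSL, a target of both SERPINB3 and SERPINB13 that was named after its values were seen, was at 76.6 and 80.7 CPM (0.07, edgeR adjusted p = 0.267) and was called with library totals (0.14, edgeR adjusted p = 0.0456).

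Of 14 tested genes of plasminogen activation and coagulation 5 were higher and 5 lower, with a median of -0.17. PLAT, the tissue plasminogen activator that SERPINB2 inhibits, went from 540 ± 2.17 CPM in NC to 127 ± 5.65 CPM in si-YTHDF2 (SD, n = 3 each), a log2 ratio of -2.09 (edgeR adjusted p = 2.31e-12). PLAU, the urokinase target of SERPINB2, was named after its values were seen and fell by 0.46 on the log2 scale (edgeR adjusted p = 1.42e-05). The thrombin receptor THBD fell by 1.28, and the plasminogen-binding enolase ENO1 rose by 0.53. SERPINB2 and its targets PLAT and PLAU all fell.

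Among the granzymes, leukocyte proteases and caspases 11 of 15 listed genes were in the table and 2 were tested. CASP1, the inflammatory caspase, fell from 55.4 to 28.6 CPM (log2 ratio -0.95, edgeR adjusted p = 8.91e-07). CASP8, the initiator of receptor-mediated apoptosis, rose by 0.33 (edgeR adjusted p = 0.00397). The median of this pair was -0.31.

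Kallikreins and other epithelial serine proteases had 8 lower and 4 higher of 15 tested, with a median of -0.50. The desquamation protease KLK7 fell from 10.2 to 2.11 CPM (log2 ratio -2.28, edgeR adjusted p = 1.63e-07) and KLK8 from 17.3 to 6.79 CPM (-1.35). The membrane protease TMPRSS4 fell from 254 to 128 CPM (-0.99), and the secreted protease PRSS23 rose from 38.8 to 104 CPM (1.42). FURIN, which SERPINB8 inhibits and which was named after its values were seen, rose from 67.9 to 92.3 CPM (0.44, edgeR adjusted p = 1.94e-05).

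Other inhibitors and serpins outside the 10 members were counted for comparison. Of 17 tested inhibitors of other classes 6 were lower and 2 higher, with a median of -0.13. The cystatin CSTA fell from 148 to 79.3 CPM (log2 ratio -0.90), the elastase inhibitor SLPI from 109 to 48.4 CPM (-1.17), the whey acidic protein WFDC2 from 226 to 83.9 CPM (-1.43) and the metalloprotease inhibitor TIMP3 from 427 to 119 CPM (-1.85, edgeR adjusted p = 2.45e-11). The 2 higher inhibitors, named after their values were seen, were PI3 (elafin), another elastase inhibitor, and the cystatin CSTB. PI3 had 3, 4 and 0 counts in NC against 23, 25 and 29 in si-YTHDF2 (log2 ratio 3.38, edgeR adjusted p = 3.83e-04), and CSTB rose from 89.5 to 121 CPM (0.43, edgeR adjusted p = 2.47e-05). SLPI and PI3 both inhibit neutrophil elastase, as SERPINB1 does, and they changed in opposite directions. Of 7 tested serpins outside the 10 members, 3 were higher and 0 lower (edgeR), with a median of -0.08. The number lower was also 0 at an unadjusted p under 0.05, with DESeq2 and with limma-voom. The higher ones included SERPINE2 (1.29, edgeR adjusted p = 0.00170) and SERPINF1 (0.78, edgeR adjusted p = 2.24e-04). SERPINB10, with a log2 ratio of -1.01, was not called (edgeR adjusted p = 0.128). SERPINB11 had 2 counts in all, both in NC, and SERPINB12 had 0 to 13 counts per library, most of them in NC replicate 3.

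Squamous differentiation genes, the setting in which several SERPINB members are induced, had 7 lower and 1 higher of 16 tested, with a median of -0.18. Without NC replicate 3 the count of higher genes was 4. KRT4 and KRT13, the keratin pair of mucosal squamous epithelium, fell from 500 to 8.53 CPM (log2 ratio -5.88) and from 9391 to 1941 CPM (-2.27). KRT5 was at 2029 CPM in NC and 2384 CPM in si-YTHDF2. CPM are not divided by transcript length, so they do not rank KRT13 against KRT5. KRT6A of stressed epidermis had a log2 ratio of -1.53, and the envelope precursor IVL had -1.39, from 16.5 to 6.30 CPM. Of 24 transcription factors reported to act on SERPINB or squamous genes 16 were lower and 4 higher, with a median of -0.34. The largest drops by p were FOS (-4.08) and JUNB (-1.83), both AP-1 subunits, the epithelial ETS factor ELF3 (561 to 140 CPM, -2.01) and GATA3 (191 to 57.0 CPM, -1.74). Not all AP-1 subunits fell. FOSL1, named after its values were seen, rose from 9.66 to 23.3 CPM (1.27, edgeR adjusted p = 7.31e-07). These values are set side by side with those of the members, and no relation between them was tested.

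**Figure D4:**
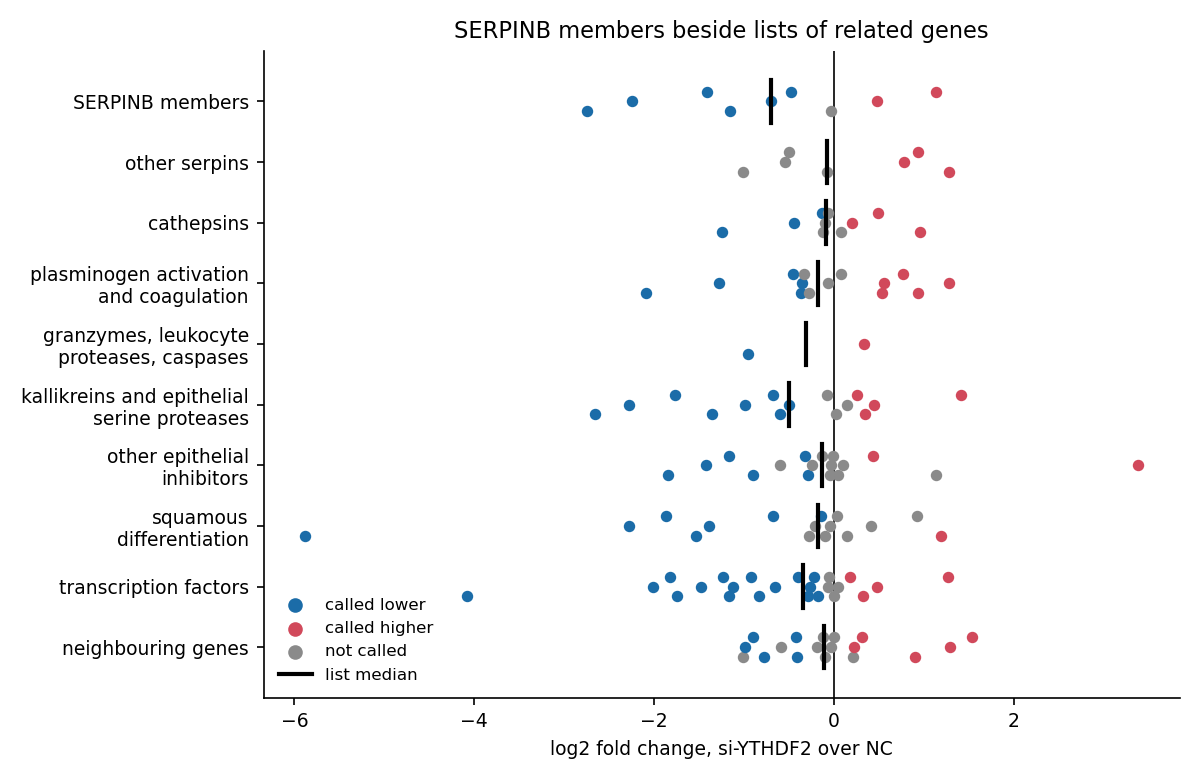
The log2 fold change of every tested gene in each list (points, coloured by call; vertical offsets only separate points), with the list median as a black bar. The SERPINB members have the lowest median (-0.70), followed by the kallikreins and epithelial serine proteases (-0.50); some genes, such as SERPINE2 and SERPINB10, stand in 2 lists.

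Genes were ranked by how close their profile over the 6 libraries lay to that of a member. The members used were the one with the highest mean CPM over the 6 libraries and the one with the largest change. Closeness was the distance between log2 CPM profiles set to their NC means, among 10951 genes. For SERPINB1 the closest genes were GBP3, an interferon-induced GTPase (distance 0.106), the Notch target HES1 (0.106) and the sialic acid enzyme GNE (0.112). For SERPINB4 they were AGR2, a disulfide isomerase of secretory cells (0.228), the collagenase MMP13 (0.278) and the mucin glycosyltransferase GCNT3 (0.339). Each of these 6 genes was called lower, from -1.13 for GBP3 to -2.67 for MMP13. They were picked for profiles close to the member's, so a change in the same direction followed from the choice.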

How the data were processed

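RNA of 6 HaCaT libraries (3 NC, 3 si-YTHDF2) was prepared with Trizol, depleted of ribosomal RNA and made into libraries with a GenSeq low-input kit, per the labels' protocols. The deposited table holds raw counts per gene and library, made by the authors, per the file headers. The build is hg38, per the submitters' processing notes; the aligner, the counter and whether strand was used: not given in the sources used here. Another 6 columns hold values that the headers call edgeR-normalized; they were left aside, and 2 lines without an identifier were dropped.

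From the counts, edgeR 4.0.16 (R 4.3.3) ran its quasi-likelihood test with TMM factors and filterByExpr, with Benjamini-Hochberg adjustment over the 12264 genes left. On simulated counts the script recovered most of the changes put in, all of them in genes with a mean count of at least 50. The simulation changed few genes and gave all genes the same dispersion. It therefore does not cover low counts, or the many calls and uneven spread of these libraries. CPM used TMM factors. TPM used 1 representative transcript per gene (GENCODE 29; 16546 genes matched). Promoter windows came from RefSeq (GRCh38.p14) for all 10 members. Alternatives were RLE or upper-quartile factors, library totals, DESeq2 1.42.0, limma-voom (limma 3.58.1), 2 other filters, 2 other thresholds, a replicate block and leaving out each library. Named genes were the members, YTHDF2, the 4 of each list and of the neighbours with the smallest p, the 3 most alike to 2 members, and a few named in the text as chosen later; some results are not reported here. The members and lists were chosen with earlier results of these data known, and list counts lend no independent support. Totals of 19803707 to 22698069 counts leave members under 40 counts per library the least precise.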

Additional observations from a re-analysis of the deposited data

How the results depend on the processing

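Of the 9 tested members, 8 kept direction and call under all 14 alternatives that refit the genes. SERPINB13 was never called and changed sign with library totals (0.034). Its lowest adjusted p over these alternatives (edgeR, DESeq2 or limma-voom) was 0.0529, just above the threshold. SERPINB1 ran from -1.18 to -1.09, SERPINB3 from -2.59 to -1.97, SERPINB4 from -2.87 to -2.68 and SERPINB7 from 0.46 to 0.54. With at least 1.5-fold required, higher and lower calls were 992 and 1074 over all genes (3199 and 3086 without it). The members' higher count was then 1, cathepsins had 1 higher and 1 lower, plasminogen genes 3 and 2, neighbours 3 and 3, and the higher counts were 0 for granzymes and caspases and 1 each for kallikreins, other inhibitors and transcription factors. Without a low-count filter granzymes and caspases had 2 higher, with a mean count of at least 50 other inhibitors had 1, with library totals squamous genes had 2, and at an adjusted p under 0.01 neighbours had 2. Leaving out 1 library gave 1 to 4 higher squamous genes and 2 to 5 higher neighbours. Same-numbered libraries correlated at 0.0349 to 0.0553 (other pairs -0.0489 to 0.00689), each best with its own number. Each group's mean was subtracted first, so the correlations of a library tend to balance out in sign. Values this small cannot decide whether libraries were paired, and the design does not say. With the replicate block 3265 genes were higher and 3173 lower, and the members' counts were 2 and 6. Depth limits SERPINB9, SERPINB3 and SERPINB4 most.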

Other observations

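The pentamer GGACT, the commonest form of the N6-methyladenosine consensus, was counted on the sense strand of the representative transcripts. Over 12241 tested genes with a transcript, 90.8% held at least 1, with a median of 0.940 per kb. Among the members that fell, SERPINB2, SERPINB3 and SERPINB6 held 0, SERPINB5 had 0.359 per kb, SERPINB4 0.572 and SERPINB1 1.15. Of those that rose, SERPINB7 had 0.506 per kb and SERPINB8 1.44, with all 5 of its copies in the 3-prime UTR. SERPINB13, not called, had 1.28 per kb and the barely detected SERPINB9 had 1.21. A copy of the letters is not a methylated site, methylation was not measured in the data used here, and no relation to the fold changes was tested.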
